A study of Homo sapiens with 4 samples.

Results

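The SR splicing factor genes were examined in RNA-seq counts of LNCaP, a human prostate cancer line that came from a lymph node metastasis and responds to androgen. The members are SRSF1, SRSF2, SRSF3, SRSF4, SRSF5, SRSF6, SRSF7, SRSF10, SRSF11 and SRSF12, chosen by symbol, 10 of the 60675 genes in the count files. All 4 libraries came from cells given the synthetic androgen R1881 at 1 nM for 72 h in phenol red-free medium with hormone-depleted serum. The 2 groups compared were vehicle (DMSO) and 50 µM CPI-455, an inhibitor of the KDM5 family of histone H3K4 demethylases, with 2 replicates each. The study's methods call these biological replicates and give the vehicle as DMSO. Cells without R1881 were not analysed here, so the comparison is of androgen with and without the inhibitor in a single cell line.

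SR proteins carry 1 or more RNA recognition motifs and a tail rich in arginine and serine. They bind exonic enhancers, recruit the U1 and U2 snRNPs to nearby splice sites and so favour exon inclusion, often against hnRNP proteins. Kinases of the SRPK and CLK families phosphorylate the tail and set where in the nucleus the proteins sit. Many SR genes also make transcripts that include an exon with an early stop codon, or that keep an intron, and such transcripts can be degraded by nonsense-mediated decay (NMD). SR proteins regulate these events in their own transcripts.

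The counts are of fragments on every annotated exon of a gene, so transcripts with early stop codons and transcripts without a reading frame count in full. In GENCODE 44, the 10 genes had between 5 and 19 annotated transcripts each. SRSF5 had 19, of which 8 were protein-coding, 8 were retained-intron transcripts and 1 was marked for NMD. SRSF7 had the most NMD transcripts, 6 of 12. Coding sequence of protein-coding transcripts made up between 6.9% of the counted exon bases in SRSF3 and 24.4% in SRSF1. In SRSF4, 25.9% of the counted bases lay in an exon of a protein-coding transcript, and in SRSF11 48.1% did, against 93.7% in SRSF1, 95.6% in SRSF2 and 94.1% in SRSF6. For SRSF4 and SRSF11, more than the other members, a gene count could therefore come from bases outside any protein-coding transcript.

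**Figure D1:**
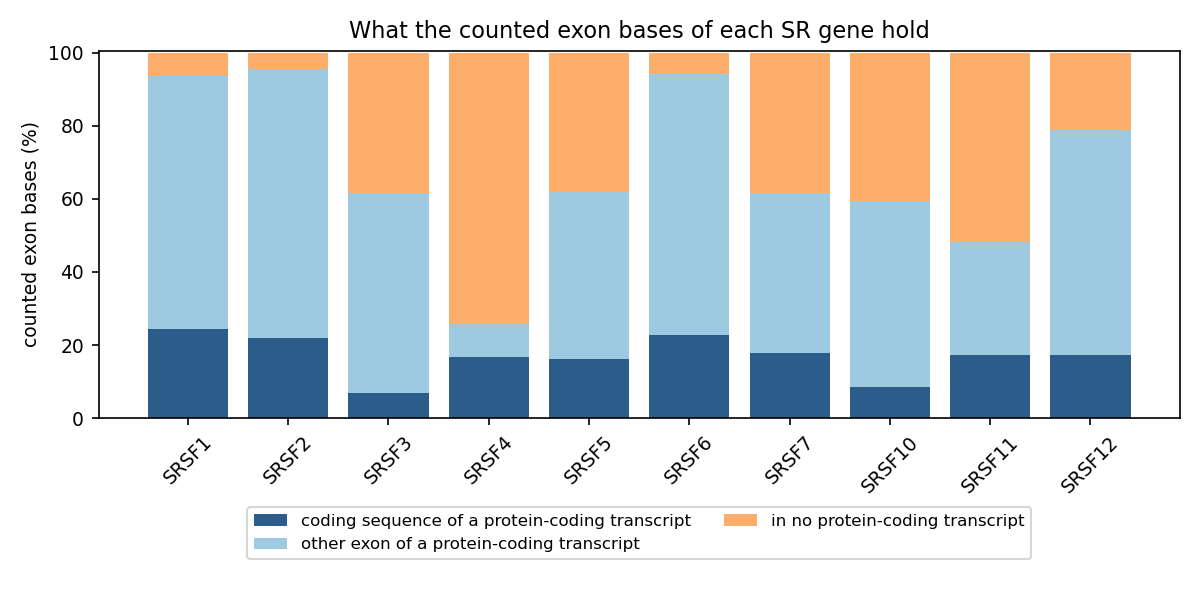
Stacked bars give the percent of the counted exon bases of each SR gene that are coding sequence, other exons of protein-coding transcripts, or in no protein-coding transcript of GENCODE 44. SRSF4 has the smallest part in protein-coding transcripts, 25.9%, and SRSF2 the largest, 95.6%.

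Internal exons that hold the stop codon of an NMD transcript and no coding base of a protein-coding transcript were found in 6 of the 10 members. These exons lay wholly within the counted exons in every case. The longest for each gene is shown here from its first base to the stop codon, in capitals. Through such exons an SR gene count can include transcripts that make no full-length protein. Retained-intron transcripts and other NMD transcripts are further ways, also in members without such an exon. Coordinates are those of GRCh38.
SRSF3, chr6:36599821-36599854, forward strand: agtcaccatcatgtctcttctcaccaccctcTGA
SRSF4, chr1:29166009-29166064, reverse strand: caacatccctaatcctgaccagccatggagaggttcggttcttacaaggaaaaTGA
SRSF6, chr20:43459153-43459304, forward strand: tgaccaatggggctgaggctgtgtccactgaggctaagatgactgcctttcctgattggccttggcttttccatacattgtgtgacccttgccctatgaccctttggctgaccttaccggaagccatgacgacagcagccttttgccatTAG
SRSF7, chr2:38749319-38749346, reverse strand: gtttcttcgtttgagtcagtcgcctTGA
SRSF11, chr1:70231859-70231908, forward strand: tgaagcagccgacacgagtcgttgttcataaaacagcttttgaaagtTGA
SRSF12, chr6:89106964-89107027, reverse strand: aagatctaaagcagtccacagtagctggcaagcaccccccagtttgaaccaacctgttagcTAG

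The SRSF3 exon is 456 bases long and reaches its stop codon, TGA, at base 32. The SRSF6 exon of 268 bases reaches TAG at base 150, and the SRSF7 exon of 449 bases reaches TGA at base 26. By this definition no such exon was found for SRSF1, SRSF2, SRSF5 and SRSF10, whose 3, 2, 1 and 2 NMD transcripts in the annotation are of other kinds. Fragments of the exons were not counted separately in these files, so their use in either group was not analysed here.

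The vehicle libraries held 19623553 and 20690819 counted fragments and the CPI-455 libraries 9522920 and 5401588. One member in the shallowest library, SRSF12, had 152 fragments, and all other members had at least 797 in every library. MALAT1, a nuclear long non-coding RNA, took between 0.0884% and 0.114% of the counts with vehicle and between 4.95% and 6.49% with CPI-455. Long non-coding RNA genes as a whole took between 1.55% and 1.71% with vehicle and between 7.32% and 8.79% with CPI-455. Genes of the mitochondrial genome took 1.91% to 2.43% with vehicle and 0.967% to 1.24% with CPI-455. The luminal prostate markers KLK3, KLK2, TMPRSS2, HOXB13, FOLH1, KRT8 and KRT18 had counts in every library, but most were lower with CPI-455. HOXB13, FOLH1 and KRT8 were among those called lower, with log2 fold changes of -2.01, -2.58 and -1.07. KLK2 went the other way (0.56, not called). Of the 3 basal markers, KRT5 was at 0 in all libraries and none passed the filter on low counts. The sum of the list was 0.189 to 0.275 normalized CPM (counts scaled to library size) with vehicle and 1.19 to 1.24 with CPI-455. The CPI-455 sums rest on 11 fragments of KRT14 in replicate 1 and 6 of TP63 in replicate 2, so they are near the floor. The 3 neuroendocrine markers summed to 61.6 to 63.3 CPM with vehicle and 73.4 to 91.9 with CPI-455, most of it ENO2 (log2 fold change 0.50, not called). SYP had a log2 fold change of 0.69 (FDR = 0.106, not called), while CHGA was called lower (log2 fold change -1.32, FDR = 0.0176). The 4 stromal and immune markers summed to 668 to 758 CPM with vehicle and 1354 to 1538 with CPI-455. Most of this sum was VIM, at 651 and 737 CPM in the vehicle libraries and 1337 and 1520 CPM in the others. VIM and COL1A1 were called higher, with log2 fold changes of 1.04 and 1.00 (FDR = 4.92e-05 and 0.0195). ACTA2 had a log2 fold change of -0.87 (FDR = 0.0407, not called), and the leukocyte marker PTPRC was at 0 in 3 libraries. Depth, MALAT1, the mitochondrial share, most luminal markers and the neuroendocrine and stromal sums moved with the groups. Their part in the values below was not tested.

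The SR genes did not move together between vehicle and CPI-455. SRSF1, SRSF2, SRSF5 and SRSF11 rose by between 2.60-fold and 4.18-fold, and no member fell by as much as 2-fold. SRSF3 was lower with CPI-455 by 1.73-fold and SRSF6 by 1.29-fold, while SRSF4 was higher by 1.26-fold. Calls needed at least a 2-fold difference and a false discovery rate (FDR, Benjamini-Hochberg over the 17600 genes tested) below 0.05 in edgeR's quasi-likelihood test, which gave every FDR below. All 10 members passed the filter on low counts, 4 were called higher and 0 lower. Of all genes tested, 42.4% were called, 21.0% higher and 21.3% lower, and of the protein-coding genes 15.6% and 24.4%. At an FDR below 0.05 with no minimum fold change, 7 of 10 members passed, 5 higher and 2 lower, against 62.6% of all genes (29.8% higher and 32.8% lower), so that share is near the background. The median log2 fold change (CPI-455 over vehicle) of the members was 0.32, against -0.04 over all genes tested and -0.21 over protein-coding genes. Each value is a level relative to the rest of its library, and in bulk RNA fewer cells of a type and less RNA per cell cannot be told apart.

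**Figure D2:**
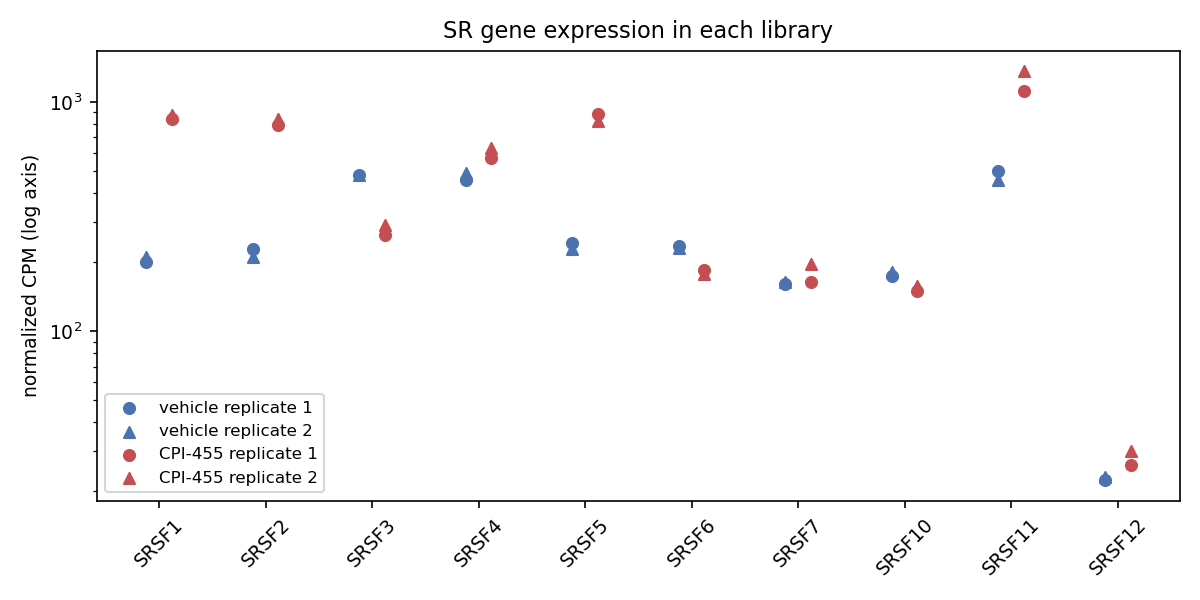
Normalized CPM (log axis) of each SR gene in each of the 4 libraries, circles for replicate 1 and triangles for replicate 2. For SRSF1, SRSF2, SRSF5 and SRSF11 the CPI-455 libraries lie at 790 CPM or above and the vehicle libraries at 497 CPM or below.

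SRSF1 is the best-studied SR protein, an activator of exon inclusion that acts as an oncogene when overexpressed. The gene (ENSG00000136450) lies on the reverse strand of chromosome 17 of GRCh38 from 58003360 to 58007346. It stood at 200 and 211 CPM with vehicle and at 842 and 877 CPM with CPI-455. Both CPI-455 libraries were far above both vehicle libraries, with replicates that differed little. The group means were 206 ± 7.59 CPM (SD, n = 2) and 860 ± 24.4 CPM (SD, n = 2), which gave a log2 fold change of 2.06 (SE 0.11, 95% interval 1.82 to 2.30, FDR = 8.89e-07). Of all genes tested, 10.2% had a higher log2 fold change than SRSF1.

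SRSF2 (ENSG00000161547) encodes SC35, the protein that marks nuclear speckles, and is recurrently mutated in myeloid neoplasms. It lies on the reverse strand of chromosome 17 from 76734115 to 76737374. Its levels were 228 and 211 CPM with vehicle and 790 and 839 CPM with CPI-455. The groups did not overlap, and the log2 fold change was 1.89 (SE 0.11, 95% interval 1.64 to 2.13, FDR = 1.40e-06). SRSF5 (ENSG00000100650), which encodes SRp40, lies on the forward strand of chromosome 14 from 69726900 to 69772005. It had 243 and 228 CPM with vehicle and 887 and 827 CPM with CPI-455. Both CPI-455 libraries were above both vehicle libraries, and the interval overlapped that of SRSF2, around a log2 value of 1.86 (SE 0.11, 95% interval 1.62 to 2.11, FDR = 1.47e-06).

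SRSF11 (ENSG00000116754), a divergent member also called p54 that interacts with the large subunit of U2AF, lies on the forward strand of chromosome 1 from 70205682 to 70253052. It had 497 and 455 CPM with vehicle and 1116 and 1359 CPM with CPI-455. Its CPI-455 replicates were the furthest apart among the 4 genes that rose, with an SD of 172 CPM around a mean of 1238. The log2 fold change was 1.38 (SE 0.12, 95% interval 1.10 to 1.66, FDR = 1.42e-05). For SRSF1, SRSF2, SRSF5 and SRSF11 the call held in all 16 other fits, which changed the normalization, filter, tool, block, length and GC correction or left out a library. These 4 were also the members that passed a test against a 2-fold change (glmTreat), with their intervals wholly above a log2 fold change of 1.

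SRSF3, SRSF4 and SRSF6 passed the FDR without reaching 2-fold. SRSF3 (ENSG00000112081, chromosome 6, 36594353 to 36605600, forward strand) is the smallest SR protein and also takes part in mRNA export and 3′ end processing. It had 478 and 477 CPM with vehicle and 263 and 290 CPM with CPI-455. Both CPI-455 libraries were below both vehicle libraries, and the log2 fold change was -0.79 (SE 0.11, 95% interval -1.03 to -0.55, FDR = 1.86e-04). The direction of SRSF3 was the same in all 16 other fits, with values from -0.98 with library totals only to -0.26 after a correction for exon length and GC. SRSF6 (ENSG00000124193, chromosome 20, 43457928 to 43464247, forward strand), which encodes SRp55, had 236 and 230 CPM with vehicle and 184 and 178 CPM with CPI-455. Its log2 fold change was -0.37 (SE 0.11, FDR = 0.0141), and its direction turned, to 0.08, with the length and GC trend removed. SRSF4 (ENSG00000116350, chromosome 1, 29147743 to 29181987, reverse strand), which encodes SRp75, had 457 and 489 CPM with vehicle and 567 and 629 CPM with CPI-455. For SRSF4 this was a log2 fold change of 0.34 (SE 0.11, FDR = 0.0218), and it had an FDR below 0.05 in 11 of 15 other fits, against 10 for SRSF6 and 15 for SRSF3. Without vehicle replicate 1 the FDR was 0.177 for SRSF4 and 0.185 for SRSF6, and without vehicle replicate 2 it was 0.0794 and 0.13.

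SRSF7, SRSF10 and SRSF12 did not pass the test, though each had an FDR below 0.05 in 4 of 15 other fits. SRSF7 (ENSG00000115875, chromosome 2, 38743599 to 38751494, reverse strand), known as 9G8, is a paralog of SRSF3 with a zinc knuckle. It had 160 and 164 CPM with vehicle and 163 and 197 CPM with CPI-455, so the groups overlapped. Its log2 fold change was 0.15 (95% interval -0.13 to 0.43, FDR = 0.327). SRSF10 (ENSG00000188529, chromosome 1, 23964804 to 23980927, reverse strand) acts as a splicing repressor when dephosphorylated, as after heat shock. It had 174 and 181 CPM with vehicle and 150 and 158 CPM with CPI-455, and a log2 fold change of -0.20 (95% interval -0.45 to 0.05, FDR = 0.137). The signs of SRSF7 and SRSF10 are not settled. SRSF7 turned with library totals only (-0.04). SRSF10 passed as lower with library totals only (-0.39, FDR = 0.0104) and without a filter (-0.36, FDR = 0.0271). It passed as higher with the length and GC trend removed (0.33, FDR = 0.0169). With that trend removed SRSF7 was at 0.54 (FDR = 0.00122) and SRSF12 at 0.74 (FDR = 0.00307), both under 2-fold. SRSF12 (ENSG00000154548, chromosome 6, 89095959 to 89118081, reverse strand), a close relative of SRSF10, was the lowest member at 22.4 and 23.2 CPM with vehicle and 26.1 and 30.1 CPM with CPI-455. The CPI-455 libraries of SRSF12 were both higher, but the interval of its log2 fold change, -0.09 to 0.68, included 0 (FDR = 0.163). Over the whole set, the CPI-455 libraries lay above both vehicle libraries for 6 members and below for 3. Such separation was common, in 81.9% of all genes, with 39.1% above and 42.8% below, so the members' 9 of 10 is near the background.

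**Figure D3:**
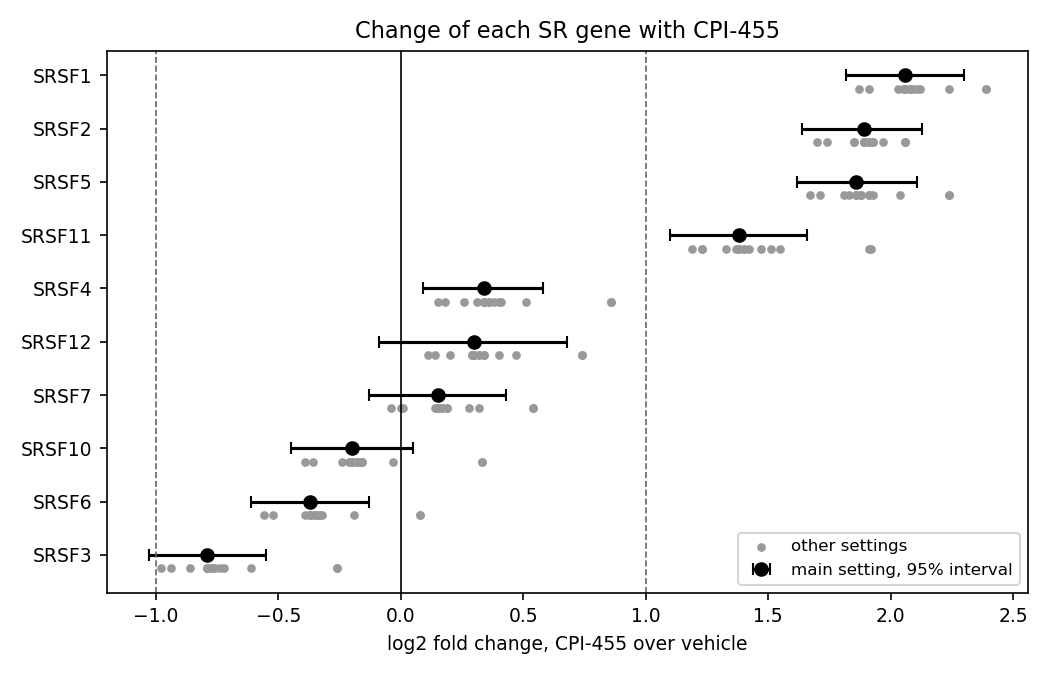
Log2 fold change of each SR gene (CPI-455 over vehicle) with its 95% interval in black, and the value in each other fit except glmTreat in grey below it; dashed lines mark 2-fold. The intervals of SRSF1, SRSF2, SRSF5 and SRSF11 lie above 1 and do not overlap those of the other 6 members.

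Levels of different members were compared as CPM per kilobase of counted exon. With vehicle the order was SRSF2 at 72.9 ± 3.93 CPM per kilobase (SD, n = 2), SRSF3 at 67.0 ± 0.071, SRSF1 at 61.6 ± 2.27, SRSF11 at 56.2 ± 3.51, SRSF4 at 53.2 ± 2.57, SRSF6 at 50.8 ± 0.942, SRSF5 at 44 ± 2.07, SRSF7 at 40.0 ± 0.837, SRSF10 at 17.2 ± 0.509 and SRSF12 at 5.01 ± 0.121. The first 8 genes lay close together, and the neighbours SRSF11 and SRSF4, and SRSF4 and SRSF6, differed by less than the SD of the more variable gene. With CPI-455 the order was SRSF2 at 270 ± 11.4, SRSF1 at 257 ± 7.31, SRSF5 at 160 ± 8, SRSF11 at 146 ± 20.3, SRSF4 at 67.2 ± 4.95, SRSF7 at 44.5 ± 6.03, SRSF6 at 39.4 ± 0.91, SRSF3 at 38.9 ± 2.65, SRSF10 at 15.0 ± 0.536 and SRSF12 at 6.18 ± 0.63. Among these, SRSF5 and SRSF11, SRSF7 and SRSF6, and SRSF6 and SRSF3 differed by less than the SD of the more variable gene. SRSF3 thus moved from the second place to the eighth, and SRSF5 from the seventh to the third. With vehicle, SRSF1 to SRSF7 and SRSF11 each stood above at least 93.7% of the tested protein-coding genes in this measure, SRSF10 above 79.9% and SRSF12 above 45.9%.

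The summed level of the 10 genes per kilobase was 471 and 465 CPM per kilobase with vehicle and 1013 and 1076 with CPI-455, a difference of 1.16 on the log2 scale. The members made up 0.282% to 0.291% of the tested counts with vehicle and 0.467% to 0.504% with CPI-455. SRSF1, SRSF2, SRSF5 and SRSF11, grouped here after their values were seen, held 49.4% and 50.9% of the summed level with vehicle and 79.5% and 80.1% with CPI-455. SRSF3 held 14.2% and 14.4% of the sum in the vehicle libraries and 3.65% and 3.78% of a larger sum in the CPI-455 libraries. The order of the levels and the shares both depend on the length used, and the shares given here are per exon base only. Per coding kilobase, SRSF3 stood at 970 CPM and SRSF2 at 332 CPM with vehicle. Per coding base in place of exon base SRSF3 ranked 1 with vehicle and 5 with CPI-455, while SRSF2 ranked 2 and then 1.

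**Figure D4:**
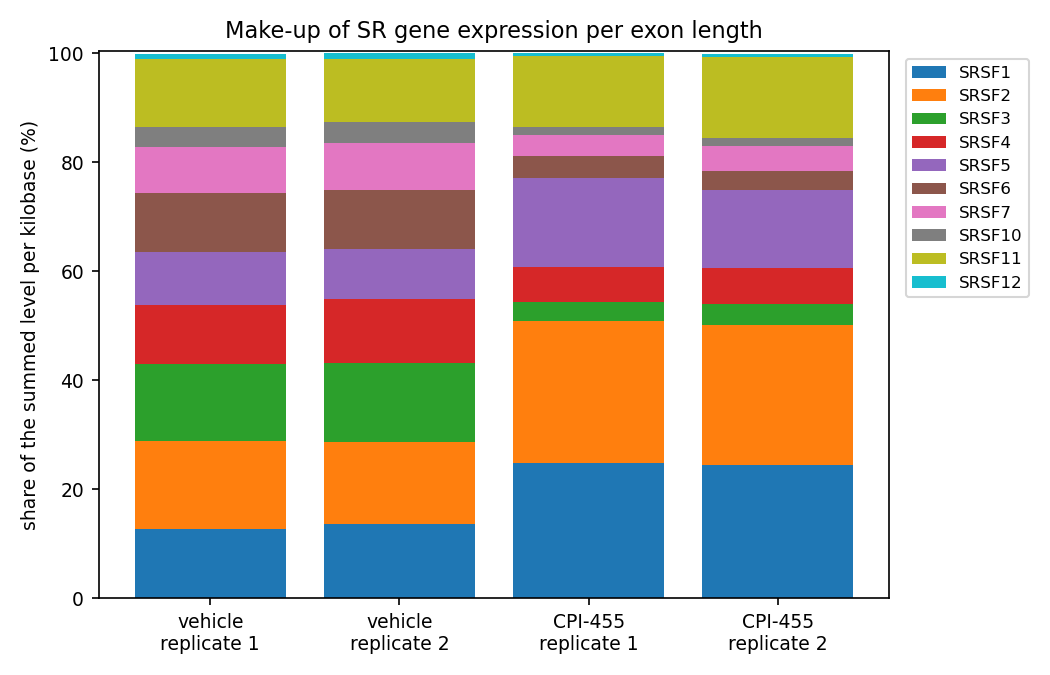
Stacked bars give the share of each SR gene in the summed CPM per kilobase of the 10 genes, for each library. SRSF1 and SRSF2 hold 12.7% to 16.1% each with vehicle and 24.4% to 25.9% each with CPI-455, and SRSF3, SRSF4 and SRSF6 together hold 36.1% to 37% of the vehicle bars but 13.9% to 14% of the others.

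Some members share ground with other genes, and fragments that touched exons of 2 genes were not counted. In SRSF2, 1106 of the 3017 exon bases (36.7%) also belong to MFSD11, on the opposite strand. MFSD11 had 27.0 and 25.4 CPM with vehicle and 46.1 and 46.4 CPM with CPI-455, a log2 fold change of 0.82 (FDR = 0.00108) that did not reach 2-fold. In SRSF1, 771 of 3340 exon bases (23.1%) were shared, 331 with ENSG00000266086 on the same strand and 440 with ENSG00000279069 on the opposite strand. Both of these had few counts. ENSG00000279069 was called higher, with 2.46 and 1.97 CPM with vehicle and 15.0 and 11.1 CPM with CPI-455. ENSG00000266086 had 0 fragments in each vehicle library and 8 in each CPI-455 library. It passed the filter only through its CPI-455 libraries, so its call could only be higher and is not read as a result. Fragments of such a gene and its partner cannot be told apart in shared bases. For partners on the opposite strand this is because strand was not used, while ENSG00000266086 lies on the strand of SRSF1. The levels of SRSF1 and SRSF2 per kilobase leave those fragments out. SRSF4 shared 169 bases with ENSG00000277916 and SRSF2 shared 99 with ENSG00000207556, both at 0 counts in every library, and the other 7 members shared none. ENSG00000225750, near SRSF4, had 3 fragments in 1 vehicle library and 0 elsewhere, and ENSG00000228988, within SRSF11, had 8 in 1 CPI-455 library and 0 elsewhere.

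SRSF7 and SRSF11 each start back to back with another gene. GEMIN6, a part of the SMN complex that assembles snRNPs, starts 40 bases from SRSF7 on the opposite strand and had 72.0 and 68.2 CPM in the vehicle libraries but 27.7 and 35.7 CPM in the others (log2 fold change -1.16, FDR = 1.96e-04), while SRSF7 did not pass. LRRC40 starts 62 bases from SRSF11 and had 53.5 and 56.4 CPM with vehicle and 37.6 and 39.3 CPM with CPI-455, a log2 fold change of -0.52 (FDR = 0.00948) beside the rise of SRSF11. In both pairs the partner gene was lower in both CPI-455 libraries than in both vehicle libraries.

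Promoter sequences from RefSeq (GRCh38.p14), from 250 bases before to 50 after a start, were matched by symbol for 9 members, with 2 starts each for SRSF7 and SRSF11; SRSF2 was not matched. Those of SRSF1 and SRSF5, which rose the most among the members with a sequence, and of SRSF3, which was the lowest relative to vehicle, are shown. Capitals mark the box with the letters CCAAT, on either strand. They also mark the ETS motif, which has the letters CCGGAAG, and would mark a GC box, GGGCGG, of which these windows hold none.
SRSF1, chr17:58007197-58007496, reverse strand: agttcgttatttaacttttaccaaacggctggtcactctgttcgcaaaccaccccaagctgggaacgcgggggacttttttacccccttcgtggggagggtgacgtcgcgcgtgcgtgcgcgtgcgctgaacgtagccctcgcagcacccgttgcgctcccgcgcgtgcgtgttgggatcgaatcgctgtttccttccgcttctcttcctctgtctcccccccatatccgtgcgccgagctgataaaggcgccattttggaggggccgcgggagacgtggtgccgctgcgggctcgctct
SRSF5, chr14:69766892-69767191, forward strand: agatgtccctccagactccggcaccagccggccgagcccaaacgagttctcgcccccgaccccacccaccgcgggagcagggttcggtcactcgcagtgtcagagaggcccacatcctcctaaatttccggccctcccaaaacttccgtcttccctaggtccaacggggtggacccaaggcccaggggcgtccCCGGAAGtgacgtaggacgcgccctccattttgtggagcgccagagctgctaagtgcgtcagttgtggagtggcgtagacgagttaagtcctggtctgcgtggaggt
SRSF3, chr6:36594112-36594411, forward strand: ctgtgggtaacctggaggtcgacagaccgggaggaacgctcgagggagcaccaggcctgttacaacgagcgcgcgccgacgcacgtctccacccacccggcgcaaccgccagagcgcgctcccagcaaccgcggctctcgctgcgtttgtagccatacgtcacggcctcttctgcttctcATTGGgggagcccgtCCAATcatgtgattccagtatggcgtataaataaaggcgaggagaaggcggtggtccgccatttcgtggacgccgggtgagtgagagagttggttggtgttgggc

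The SRSF3 promoter holds 2 CCAAT boxes in opposite orientation, and a TATA box motif (TATAAA). The CCAAT box was in 1 of the 11 member promoters and in 34.6% of all 35116 promoters in the table. The SRSF5 promoter holds 1 ETS motif, found in 2 of 11 member promoters and 10.3% of all, and the SRSF1 window holds none of these letters. A GC box was in 6 of 11 member promoters, those of SRSF4, SRSF6, SRSF7 and SRSF12 and 1 of the SRSF11 starts, against 45% of all. The motifs TATAAA (3 of 11, against 11.5% of all), CACGTG (0 of 11, against 7.3%), the NRF1 motif (0 of 11, against 1.2%) and the heat shock element (0 of 11, against 0.5%) were also searched on both strands. A match describes the letters only, and the motifs do not overlap each other in the windows shown.

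Other genes of SR protein function were read from fixed lists. Of 9 kinases that act on SR proteins, 4 were called higher and 2 lower, with a median log2 fold change of 0.73. Over all genes tested, 21.0% were called higher and 21.3% lower. SRPK3 rose from 3.36 and 1.88 CPM to 16.8 and 12.1 CPM, CLK3 from 53.8 and 46.0 to 151 and 176 CPM (log2 fold changes 2.47 and 1.71, FDR = 2.80e-04 and 7.42e-06), and CLK2 by 1.03 on the log2 scale. SRPK1, the main cytoplasmic SR kinase, fell from 309 and 324 CPM with vehicle to 106 and 98.9 CPM with CPI-455 (log2 fold change -1.63, FDR = 3.36e-06), and DYRK1A had a log2 fold change of -1.07. CLK2, at 2.05-fold, and CLK4, at 2.02-fold, lay at the 2-fold threshold, and the calls of this list went from 6 to 4 with library totals only, without a filter and without vehicle replicate 2.

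Of 5 genes for transport and dephosphorylation of SR proteins, 2 were called lower and 0 higher, and the 2-fold calls of this list were fewer in several fits. Calls in either direction covered 42.4% of all genes tested, so 2 of 5 is near the background. TNPO3, the importin that carries SR proteins into the nucleus, fell from 75.7 and 83.7 CPM to 44.3 and 32.7 CPM (log2 fold change -1.03, FDR = 4.97e-04), and the phosphatase subunit gene PPP1CB had a log2 fold change of -1.40. The mRNA export gene NXF1 had a log2 fold change of -0.58, PPP1CA one of -0.91 and PPP1CC one of 0.22, and none of these was called. The 2 remaining SR genes were SRSF8, which arose as a retroposed copy of SRSF2, and SRSF9. SRSF8 had 115 CPM in both vehicle libraries and 53.5 and 62.3 CPM with CPI-455. It fell by 50% (FDR = 1.28e-04), which is at the threshold, and the call was lost in 10 of 18 other settings. SRSF9 had 157 and 162 CPM with vehicle and 149 and 132 CPM with CPI-455, and a log2 fold change of -0.18 (FDR = 0.198).

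Of 28 SR-related genes, whose proteins carry arginine and serine rich stretches or work beside SR proteins, 12 were called higher and 4 lower, with a median log2 fold change of 0.87. The shares over all genes tested were 21.0% higher and 21.3% lower. LUC7L3, a U1 snRNP partner, rose from 231 and 212 CPM to 2672 and 3045 CPM, LUC7L from 43.4 and 42.1 to 375 and 363 CPM, and PNN, a nuclear speckle gene, from 248 and 219 to 1508 and 1669 CPM, each with FDR of 5.83e-07 or lower. Their log2 fold changes were 3.69, 3.11 and 2.76, larger than that of any SRSF gene. SCAF1, SCAF8 and THRAP3 fell the most, with log2 fold changes of -1.82, -1.64 and -1.43.

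Of 24 hnRNP genes 4 were called higher and 3 lower (median log2 fold change -0.22), and of 36 core spliceosome genes 5 were called higher and 3 lower (median -0.02). Both lists had smaller shares called in each direction than all genes tested (21.0% higher and 21.3% lower). In the hnRNP list HNRNPDL, HNRNPD and HNRNPLL rose the most, by 2.29, 1.91 and 1.35 on the log2 scale, and HNRNPA0, HNRNPF and HNRNPUL1 fell, with log2 fold changes of -1.37, -1.34 and -1.08. In the core list SNRPF, SNRPA1 and SNRPE, which encode snRNP proteins, rose by 1.99, 1.26 and 1.18, and AQR, SF3B4 and PRPF4 fell, with log2 fold changes of -1.58, -1.26 and -1.18. Genes of NMD, the pathway that degrades transcripts with early stop codons, were called in both directions. SMG9, UPF3B and UPF2 rose by 2.02, 1.57 and 1.55 on the log2 scale, and SMG8 and SMG6 fell, with log2 fold changes of -3.15 and -1.77. No list was tested against another.

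**Figure D5:**
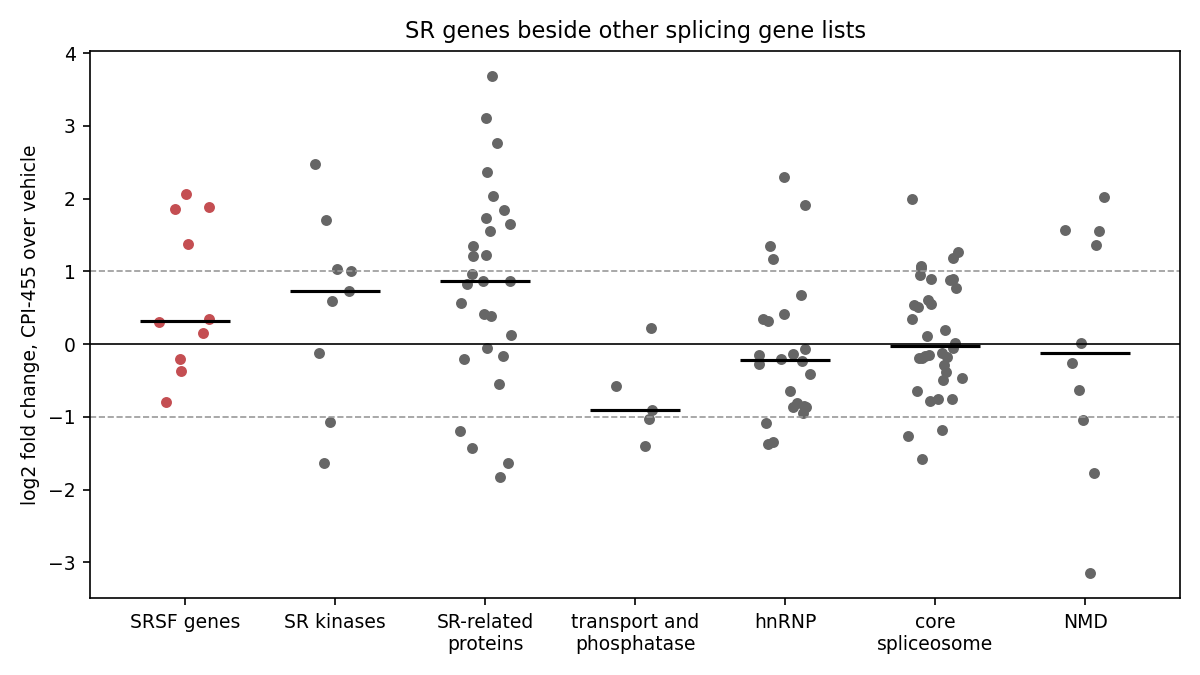
Log2 fold change (CPI-455 over vehicle) of every gene in each list as points, with the median as a bar and 2-fold as dashed lines; SRSF genes in red. The median was 0.32 for the SRSF genes, 0.73 for SR kinases, 0.87 for SR-related genes, -0.91 for transport and phosphatase genes, -0.22 for hnRNP and -0.02 for core spliceosome genes.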

How the data were processed

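RNA-seq was analysed in 4 LNCaP libraries, 2 per group. Before deposit, the authors used Trim Galore on the reads, STAR for alignment and featureCounts v1.5.0-p1 for gene counts (Ensembl 83, GRCh38). The files hold these deposited counts without normalization. Strand was not used and multi-mapping or multi-gene fragments were left out. Symbols were matched for 56558 of 60675 genes. In R 4.3.3, edgeR 4.0.16 was run with TMM, filterByExpr (minimum 10 counts, 17600 genes kept) and the quasi-likelihood test without covariates, on the whole table. Standard errors came from the F statistic. Normalized CPM use TMM library sizes. Transcript types and exon classes came from GENCODE 44 on GRCh38, the build of the files. The alternatives used edgeR, DESeq2 1.42.0 and mgcv 1.9.3. The quasi-likelihood test, the likelihood-ratio test, DESeq2 and the length and GC correction were tested on simulated data. Totals ran from 5401588 to 20690819, so 3 counts were 0.145 to 0.555 CPM. P-values rest on a spread estimated from 2 libraries per group and moderated over all genes tested. Every member is named; from other lists, at most 3 called genes per direction with the largest change, lists of up to 5 genes in full, and genes within 1 kb of a member. Members and lists were chosen with earlier results of these data known. Results that rest on some listed genes are not reported here.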

Additional observations from a re-analysis of the deposited data

How the results depend on the processing

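The 4 calls of SRSF1, SRSF2, SRSF5 and SRSF11 held in each setting tried, and without a minimum fold change 7 members passed the FDR. With library totals only, upper-quartile normalization and no filter, the median of all genes moved to -0.23, 0.14 and -0.41. The first 2 change only the library factors, which shifts all genes alike, so the distance of a member from that median could not show a difference. Without a filter other genes enter the median, and SRSF1 lay 2.32 above it, against 2.10 in the main fit. The median log2 fold change of the members was 0.49 with upper-quartile normalization, 0.13 with library totals only, 0.16 without a filter and 0.80 with the length and GC trend removed, with or without the replicate block. SRSF6 turned to 0.08 and SRSF10 to 0.33 with that trend removed, with or without the block, and SRSF7 to -0.04 with library totals only and -0.00 without a filter. The cause was not tested. The summed level differed by 0.86 on the log2 scale per coding base. glmTreat left 3 SR kinases, 3 core spliceosome genes and 4805 of all genes. Of the transport and phosphatase genes, 1 was called with upper-quartile normalization, 10 counts in every library, the length and GC trend removed (also with the block) and glmTreat, 1 to 3 without single libraries, and 4 with no minimum fold change. SRSF8 and SRSF9 had 0 calls with RLE, upper-quartile, 10 counts in every library, DESeq2, the length and GC trend removed (also with the block) and glmTreat, and 0 to 1 without single libraries. The hnRNP list had 11 calls without a filter, the core list 5 with library totals only, and with no minimum fold change the counts were 18 hnRNP, 24 core and 5 neighbouring genes. With no minimum fold change 62.6% of all genes tested passed.

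The labels number replicates 1 and 2 in both groups, but nothing says that equal numbers were grown together, and the deviations of same-numbered libraries had a correlation of 0.04. The replicate block gave 4 called members and 7167 called genes, against 7454 without it. Leaving out 1 library leaves a lone library assumed to vary like the other group. Depth limits SRSF12 most, with 152 fragments in the shallowest library.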
